A study of Mus musculus with 16 samples.

Results

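The 50 genes described here act in mitosis or in the G2 phase that leads into it. They were taken as a named list and found by gene symbol among the 53379 genes of the count files, in which all 50 were present. RNA-seq had been carried out on green MADM-labeled cells sorted from the mouse neocortex at postnatal day 4 (strain CD1 in the labels, a mixture of C57BL/6 and CD1 in the methods of the study). MADM (mosaic analysis with double markers) recombines homologous chromosomes, here chromosome 7, in single dividing cells, so that the colour of a cell gives its genotype. All animals carried the MADM cassettes on chromosome 7 (MADM7-GT/TG), Emx1-cre, which drives recombination in cortical progenitors, and the transgene XGFAP-lacZ, which puts lacZ under the human GFAP promoter. In control-MADM mice (wt) green cells were Eed+/+, and in Eed-MADM mice (mosaic, animals heterozygous for Eed) they were Eed-/-. In both genotypes green cells held 2 paternal and no maternal copies of chromosome 7, where the members Mki67 and Plk1 lie. GFP+/lacZ+ cells were collected as astrocytes (5 Eed+/+ and 5 Eed-/- libraries) and GFP+/lacZ- cells as neurons (2 and 3 libraries). The sort for astrocytes took individual animals as replicates.

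At mitosis a cell condenses its duplicated chromosomes, attaches them to the spindle through kinetochores and divides the cytoplasm. Cyclin-dependent kinase 1 with its A and B cyclins drives entry, and the anaphase-promoting complex (APC/C) ends it by marking cyclin B and securin for destruction. Most of these genes are transcribed in G2 and mitosis and are low in cells that have left the cycle, so their RNA is commonly read as a sign of dividing cells. In the early postnatal cortex, astrocytes expand by local division, whereas neurons do not divide. EED is a core subunit of Polycomb repressive complex 2, which methylates lysine 27 of histone H3.

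A promoter element, the cell cycle genes homology region (CHR), is known from many G2/M genes. RefSeq promoters (GRCm38.p6), 250 bases before to 50 after each start and 300 bases in all, were on hand for 43 of the 50 members. The letters TTTGAA or TTCGAA, on either strand, were present in 32 of these 43 promoters (74.4%), against 21.7% of the promoters of all 27025 genes of the table. A CCAAT box, also on either strand, was present in 34 (79.1%, against 41.1% of all genes), and both in 28 (65.1%, against 8.61%). The subunits of the APC/C, which act in mitosis but serve throughout the cycle, held a CHR match in 1 of 13 promoters (7.69%), and D and E cyclins with their partners in 0 of 5. Lists closer to the members had larger shares, with 5 of 9 (55.6%) for other condensin and cohesin genes, 6 of 11 (54.5%) for regulators of G2/M and 5 of 11 (45.5%) for other kinetochore and checkpoint genes. The 120 bases before the start are shown for 7 members that carry the results below, 5′ to 3′ on the strand of the gene, with CHR and CCAAT matches of either orientation in capitals.
Cdk1, chr10:69352913-69353032, minus strand: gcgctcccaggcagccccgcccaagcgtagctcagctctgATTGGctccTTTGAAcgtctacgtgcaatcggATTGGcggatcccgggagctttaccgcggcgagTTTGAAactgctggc
Top2a, chr11:99024190-99024309, minus strand: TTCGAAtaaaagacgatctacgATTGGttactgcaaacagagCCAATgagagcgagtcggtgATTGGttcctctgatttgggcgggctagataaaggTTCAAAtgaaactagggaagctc
Mki67, chr7:135716380-135716499, minus strand: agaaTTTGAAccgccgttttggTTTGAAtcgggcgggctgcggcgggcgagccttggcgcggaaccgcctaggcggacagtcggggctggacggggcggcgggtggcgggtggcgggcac
Ube2c, chr2:164769809-164769928, plus strand: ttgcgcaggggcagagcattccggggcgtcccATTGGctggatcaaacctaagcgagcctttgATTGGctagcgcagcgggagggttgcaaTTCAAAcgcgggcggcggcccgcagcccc
Cks1b, chr3:89418292-89418411, minus strand: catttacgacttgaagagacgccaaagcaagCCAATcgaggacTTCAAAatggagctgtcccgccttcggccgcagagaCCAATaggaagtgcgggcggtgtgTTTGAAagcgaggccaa
Ckap5, chr2:91526642-91526761, plus strand: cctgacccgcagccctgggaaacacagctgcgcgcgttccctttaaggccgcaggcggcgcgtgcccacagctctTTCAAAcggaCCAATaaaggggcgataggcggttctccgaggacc
Nde1, chr16:14163155-14163274, plus strand: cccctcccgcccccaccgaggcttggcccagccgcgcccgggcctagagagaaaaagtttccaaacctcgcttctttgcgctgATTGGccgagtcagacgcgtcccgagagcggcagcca
Nde1 was among the 11 members in the table without a CHR match and held 1 CCAAT match in the stretch shown. Mki67 held 2 CHR matches and no CCAAT match there. A match is a description of letters and not a site of binding.

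Depth and alignment limited which libraries could be compared. The 15 libraries with a group held between 211736 and 3178529 gene reads, and 10 of them had at least 60% and at least 1000000 uniquely aligned reads (called well aligned here): 4 Eed+/+ astrocyte (replicates 1, 2, 4 and 5), 2 Eed-/- astrocyte (replicates 2 and 5), 1 Eed+/+ neuron (replicate 1) and all 3 Eed-/- neuron libraries. Eed reads were present in both well aligned Eed-/- astrocyte libraries (16.1 and 12.5 CPM, that is reads per 1000000 gene reads, here scaled by the TMM method, against 25.7 to 73.0 CPM in Eed+/+). Only part of Eed is deleted, so reads elsewhere in the gene do not check the genotype. All 10 astrocyte markers had reads in every well aligned library, at a summed 10315 to 20075 CPM (unscaled) in astrocytes and 6357 to 8276 in neurons. Markers of neurons summed to 689 to 3227 CPM in astrocyte and 1927 to 3134 CPM in neuron libraries, so the ranges of the neuron markers overlapped. In every well aligned library labelled neurons the astrocyte markers summed higher than the neuron markers. The word neuron is used here for the sorted GFP+/lacZ- cells, and members read there are not assigned to a cell type. Oligodendrocyte lineage markers, all 8 of them read, summed to 2707 to 4116 CPM in the well aligned neuron libraries, above the neuron markers in all but Eed-/- replicate 3. Fewer cells of a type and less RNA per cell cannot be told apart in such bulk samples.

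The members were detected in every well aligned neuron library, and in astrocytes they ranged from all 50 to 16 with a read within 1 genotype. In Eed+/+ astrocytes the summed level of the 50 genes was 4742, 759, 2488 and 505 CPM (TMM-scaled) in replicates 1, 2, 4 and 5 (2123 ± 1956, SD, n = 4). In Eed-/- astrocytes it was 390 and 1601 CPM in replicates 2 and 5 (996 ± 857, SD, n = 2). Both Eed-/- values lay below those of Eed+/+ replicates 1 and 4, and replicate 5 lay above those of Eed+/+ replicates 2 and 5, so the groups overlapped. The highest Eed+/+ library was 9.39 times the lowest, and the Eed+/+ mean was 2.13 times the Eed-/- mean. Neurons held 2276 CPM in the single Eed+/+ library and 3304, 3904 and 2875 CPM in Eed-/- replicates 1, 2 and 3 (3361 ± 517, SD, n = 3), a span of 1.36 times.

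**Figure D1:**
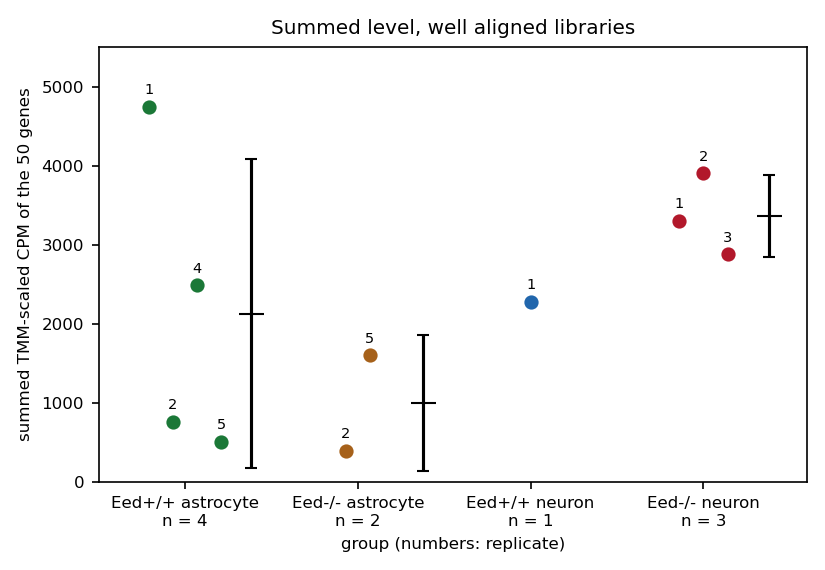
Summed TMM-scaled CPM of the 50 genes (y axis) in each well aligned library (points, with replicate numbers) by group (x axis); bars give the mean and SD for groups with more than 1 library. The Eed+/+ astrocyte points run from 505 to 4742 CPM and the Eed-/- astrocyte points lie within that range or just under it.

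Detection varied between the same libraries. At least 1 read was present for 50, 41, 50 and 16 members in Eed+/+ astrocyte replicates 1, 2, 4 and 5, and for 16 and 48 members in Eed-/- replicates 2 and 5. Every member was read in each of the 4 well aligned neuron libraries. The counts were nearly the same at equal depth: at a common 994077 gene reads per library, the expected numbers were 50, 39.0, 49.9 and 15.6 in Eed+/+ and 15.5 and 48 in Eed-/- astrocytes. Eed+/+ replicate 5 (1621352 gene reads) and Eed-/- replicate 2 (1890462) each had 34 members at 0, while 76.5% and 79.7% of all 12994 tested genes had a read there. These libraries also had the lowest shares of uniquely aligned reads among the 10 well aligned ones, 60.5% and 63.5%. They held the fewest genes with a read, 11433 and 12357, and Eed-/- replicate 5 came next with 66.3% and 14199. Equal depth does not correct for this, and its part in the members at 0 was not tested.

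**Figure D2:**
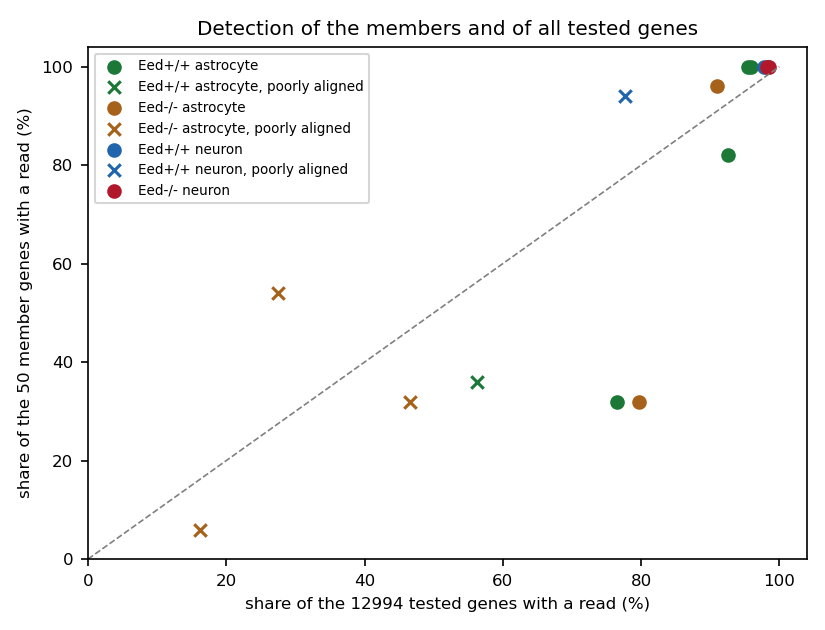
Share of the 50 members with at least 1 read (y axis, %) against the share of 12994 tested genes with at least 1 read (x axis, %) in each of the 15 labelled libraries; crosses are poorly aligned libraries and the dashed line marks equal shares. Eed+/+ astrocyte replicate 5 and Eed-/- astrocyte replicate 2, at 32% of the members, fall far under the line, and well aligned neuron libraries sit at 100%.

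The members without a read were largely shared between these libraries. In both Eed+/+ replicate 5 and Eed-/- replicate 2, 27 members were at 0, among them Mki67, Top2a, Ccna2, Ccnb2, Plk1, Bub1, Aurkb, Birc5, Kif11 and Ube2c. In the same 2 libraries 9 members had reads, and these 9 were also the only ones with reads in all 6 well aligned astrocyte libraries: Smc4, Ncapd2, Hmgb2, Cks1b, Aurka, Tacc3, Ckap5, Nde1 and G2e3. Smc4 and Ncapd2 belong to condensin, Hmgb2 bends DNA, and Ckap5 lengthens microtubules. The other 14 had reads in 1 of the 2 libraries. A CHR match was present in 5 of the 8 members with reads in both that were in the promoter table and in 15 of the 22 without a read in either.

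**Figure D3:**
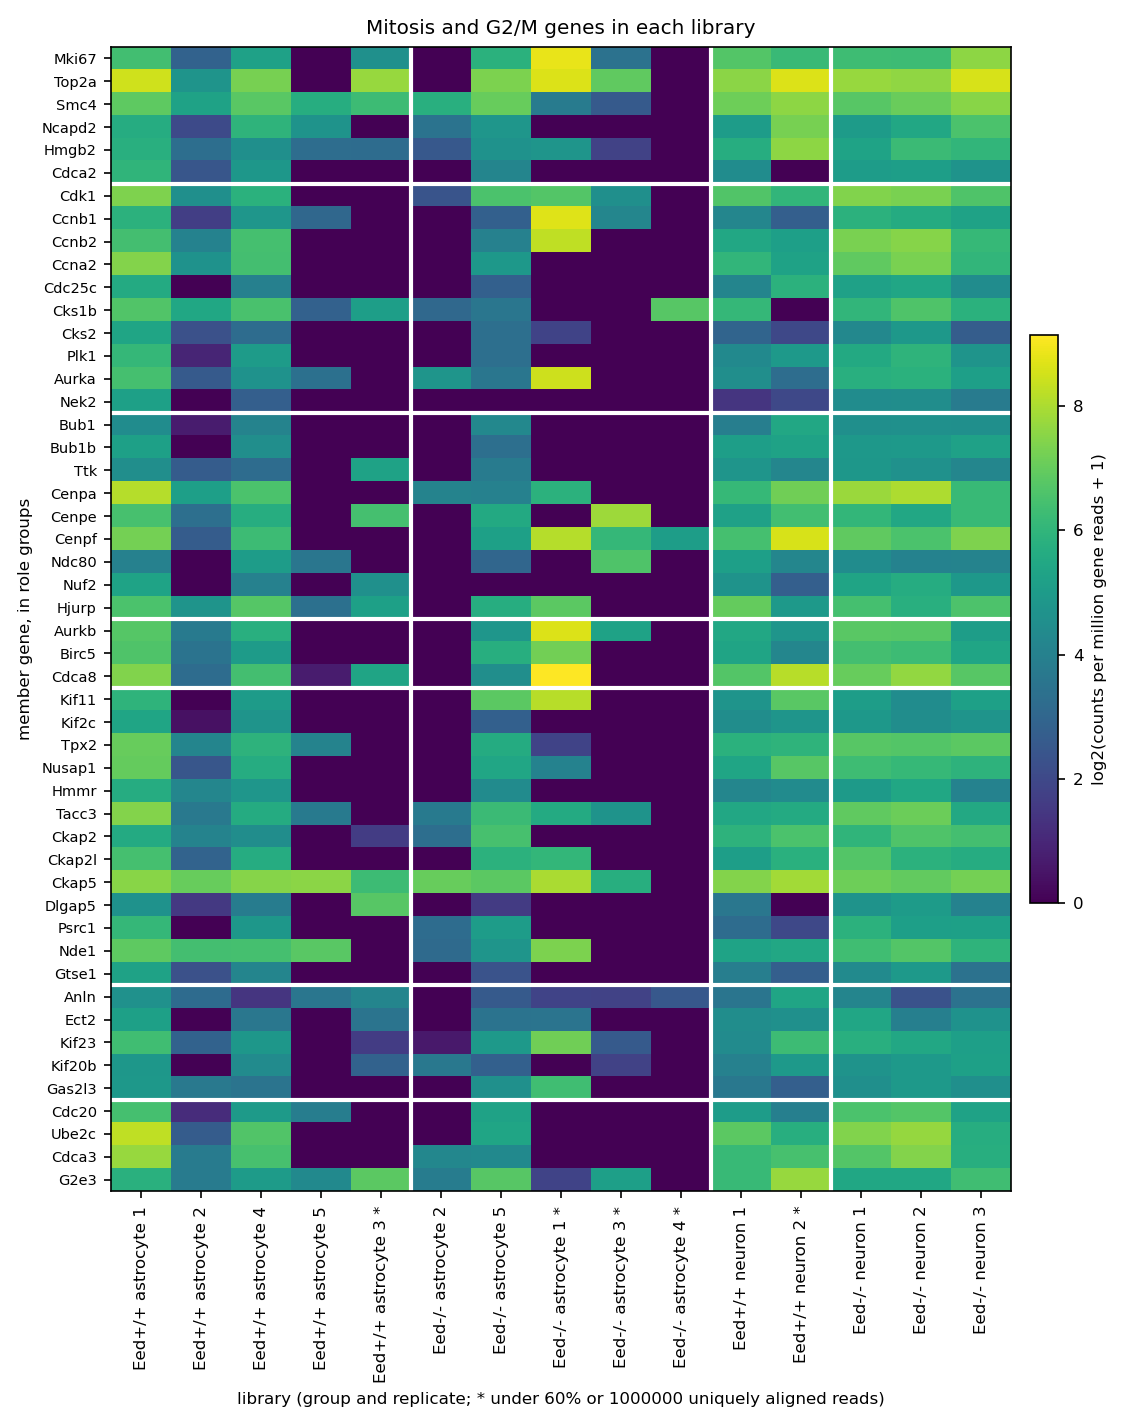
Level of each of the 50 members (rows, in role groups divided by white lines) in each of the 15 labelled libraries (columns, by group), as log2 of unscaled CPM plus 1; asterisks mark poorly aligned libraries. Dark columns of members at 0 stand in Eed+/+ astrocyte replicate 5 and Eed-/- astrocyte replicate 2, while the neuron columns are filled.

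Related genes outside the list varied less in part. All 14 APC/C subunits were read in each of the 6 well aligned astrocyte libraries, at a summed 1388, 1288, 1558 and 1274 CPM (TMM-scaled) in Eed+/+ replicates 1, 2, 4 and 5 and 1211 and 1248 CPM in Eed-/- replicates 2 and 5. D and E cyclins with their kinases summed to 2003, 1861, 2428 and 2104 CPM in Eed+/+ and 1705 and 1660 CPM in Eed-/- libraries. Neither list was near 0 in any of these libraries. Other kinetochore and checkpoint genes, by contrast, had reads for 14, 13, 15 and 4 of 15 genes in Eed+/+ and 7 and 15 of 15 in Eed-/- libraries.

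Which library was highest varied little from member to member. Of the 50 members, 42 were highest in Eed+/+ astrocyte replicate 1 among the 6 well aligned astrocyte libraries, 4 in Eed+/+ replicate 4, 3 in Eed-/- replicate 5 and 1 in Eed+/+ replicate 5. Within Eed+/+ astrocytes 35 members had an SD above their mean, and the median coefficient of variation was 115%. It was 33.0% in Eed-/- neurons. The steadiest members across Eed+/+ astrocytes were Ckap5 (11.3%) and Nde1 (12.3%). Per kilobase of exon, and over the 10 well aligned libraries, the highest members were Cks1b (47.8 CPM per kb), Ccnb2 (41.3) and Ube2c (37.1), and the lowest was Anln (0.983). The order differed in Eed-/- astrocytes, where Smc4 (17.1 CPM per kb), Ckap2 (13.7) and Ckap5 (13.3) were highest and Nek2 and Nuf2 were at 0.

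Other markers differed between the same libraries. Neuron markers summed to 1432, 760, 2609 and 1573 CPM (unscaled) in Eed+/+ astrocyte replicates 1, 2, 4 and 5 and to 689 and 3227 CPM in Eed-/- replicates 2 and 5. Markers of intermediate progenitors, which divide to give neurons, summed to 52.9, 8.18, 85.7 and 74.0 CPM and to 2.64 and 370 CPM in the same order. Eed-/- replicate 2 was thus the lowest of the 6 in both marker lists, and Eed-/- replicate 5 the highest. Oligodendrocyte lineage markers ranged from 1205 to 4876 CPM in Eed+/+ and were 3533 and 3922 CPM in Eed-/- libraries. Microglia markers reached 330 CPM in Eed+/+ replicate 2, with all 8 read, and all 8 were at 0 in both Eed-/- libraries. The part of these cell types in the level of the members was not tested.

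The comparison of Eed-/- with Eed+/+ astrocytes asks whether loss of Eed alters genes of dividing astrocytes. Over the 6 well aligned libraries 46 of 50 members had a negative log2 fold change, but no member passed the edgeR test. Of all 12070 genes tested 6171 were negative. The median of the members was -1.35, against -0.02 for all genes tested. As 42 members were highest in Eed+/+ replicate 1, the counts of signs by role below are not separate results. Without that library 24 of 46 members were negative. edgeR called 0 members and 0 genes (0% of those tested) at an adjusted p of 0.05. At an unadjusted p of 0.05 it called 2 members lower, Nde1 and Cks1b (background 2.78%, 336 genes), and 0 higher (1.26%, 152 genes). DESeq2 called Nde1 alone among the members (background 0.116%, 14 genes, at 0.05; 0.878%, 106 genes, at 0.2), and limma called 0. At an unadjusted p of 0.05 DESeq2 called 3 members (background 6.08%) and limma 1 (2.97%), which as shares of 50 are no larger than the background.

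Nde1, which encodes a partner of dynein and LIS1 at the spindle and is needed for progenitor division in the cortex, had a small spread within Eed+/+ astrocytes. Its level was 118, 96.7, 90.6 and 112 CPM in Eed+/+ replicates 1, 2, 4 and 5 and 9.30 and 23.2 CPM in Eed-/- replicates 2 and 5. All Eed-/- values lay below all Eed+/+ values, including that of Eed+/+ replicate 5, in which 34 members had no read. The log2 fold change was -2.63 (SE 0.56, edgeR adjusted p 0.9998), and with DESeq2 -2.60 (adjusted p 0.0221). It was the only member with groups that did not overlap in this direction (background 8.38% of genes), and none lay wholly above (6.16%). In the poorly aligned libraries Nde1 had 0 reads in Eed+/+ replicate 3 and 61, 0 and 0 reads in Eed-/- replicates 1, 3 and 4. The 61 reads came to 159 CPM (unscaled), above every Eed+/+ astrocyte library on that scale (0 to 117 CPM), and over all 10 astrocyte libraries its fold change was -1.56 (edgeR adjusted p 0.9999). It shares 2.40% of its exon bases with Marf1 on the opposite strand.

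The members of the mitotic entry group, which hold the kinase CDK1, its cyclins and their activators, had negative fold changes in 10 of 10 cases in astrocytes, with a median log2 fold change of -2.54. Cks1b encodes a small subunit bound to cyclin-dependent kinases. It stood at 101, 48.0, 95.4 and 6.26 CPM in Eed+/+ and at 8.68 and 9.82 CPM in Eed-/- libraries, so that Eed+/+ replicate 5 lay under both Eed-/- values (log2 fold change -2.70, SE 1.07, edgeR adjusted p 0.9998). Cdk1 was 165, 25.8, 58.1 and 0 CPM in Eed+/+ and 4.96 and 83.0 CPM in Eed-/- libraries (-0.43, SE 1.58). Each group thus held a library at or near 0 and a library above 80 CPM. Nek2, a centrosomal kinase, was 35.7, 0, 6.07 and 0 CPM in Eed+/+ and was without a read in both Eed-/- libraries.

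The chromosome structure group had a median of -0.82, with 5 of 6 members negative. Mki67, whose protein marks cycling cells and coats mitotic chromosomes, stood at 82.6, 7.16, 38.6 and 0 CPM in Eed+/+ and at 0 and 50.0 CPM in Eed-/- astrocytes. Its log2 fold change was -0.28 (SE 1.92), less than its error. Top2a, the topoisomerase that untangles sister DNA, was 364, 29.4, 161 and 0 CPM against 0 and 142 CPM (-0.89, SE 1.91). Smc4 was 43.0 to 118 CPM in Eed+/+ and 62.6 and 115 CPM in Eed-/- libraries and had a positive fold change (0.17), as did Kif11 (1.17), Ckap2 (1.08) and G2e3 (0.94).

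Kinetochore, centromere and checkpoint genes were negative in 9 of 9 cases, with a median of -1.80. Nuf2, a subunit of the NDC80 complex that holds microtubules, had 117 reads over the 4 Eed+/+ libraries and none in either Eed-/- library. With 3 reads over the group set as the floor, its pooled share of reads was at least 12.1-fold lower. It was also without a read in Eed+/+ replicates 2 and 5 (38.6, 0, 16.0 and 0 CPM). Nek2, by the same floor, was at least 9.10-fold lower. Both genes passed the low-count filter only through Eed+/+ replicates 1 and 4, so they could only come out lower. The limits pool reads over libraries and are given without a reading. With 1 library left out these limits ran from 4.17 (without Eed-/- replicate 2) to 18.4 (without Eed+/+ replicate 2) for Nuf2 and from 1.87 (without Eed+/+ replicate 1) to 13.8 (without Eed+/+ replicate 2) for Nek2. Leaving out Eed+/+ replicate 1 gave 4.94 for Nuf2, and leaving out Eed-/- replicate 2 gave 3.13 for Nek2. Leaving out Eed-/- replicate 5 gave 7.93 for Nuf2 and 5.96 for Nek2. With both genes set to these bounds the median of the 50 members was still -1.35. Cenpa, the histone H3 of centromeres, stood at 281, 39.4, 96.7 and 0 CPM in Eed+/+ and at 18.6 and 13.4 CPM in Eed-/- libraries (-2.65, SE 1.63).

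The named members of the remaining roles, Nde1 aside, overlapped between groups. Cdca8, or borealin, of the chromosomal passenger complex was 172, 9.67, 86.7 and 0.626 CPM against 0 and 19.6 CPM (-2.73, SE 1.98), and the 3 members in that complex were all negative (its other subunit gene, Incenp, is no member and had a fold change of 0.87, SE 1.59). Ckap5 was 184, 147, 186 and 190 CPM against 151 and 101 CPM (-0.45, SE 0.34), so its change was small and its error the smallest of the genes named. Spindle genes were negative in 11 of 13 cases (median -1.25). Kif23, a motor of the central spindle in cytokinesis, was 80.7, 7.16, 28.6 and 0 CPM against 0.62 and 25.9 CPM (-1.06, SE 1.88), and all 5 cytokinesis genes were negative. Ube2c, the ubiquitin-conjugating enzyme of the APC/C, was 308, 6.09, 103 and 0 CPM against 0 and 35.7 CPM (-2.49, SE 2.16). With 1 library left out the fold changes ran from -10.77 to -0.93 for Ube2c, from -10.13 to -1.62 for Cdca8 and from -3.06 to -1.44 for Cenpa, nearest to 0 without Eed+/+ replicate 1. The lowest values for Ube2c and Cdca8 came without Eed-/- replicate 5, where both genes are at 0 in the Eed-/- library left, and depend on the prior count. Ube2c shares 22.8% of its exon bases with Tnnc2 on the opposite strand, where unstranded reads are not assigned.

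**Figure D4:**
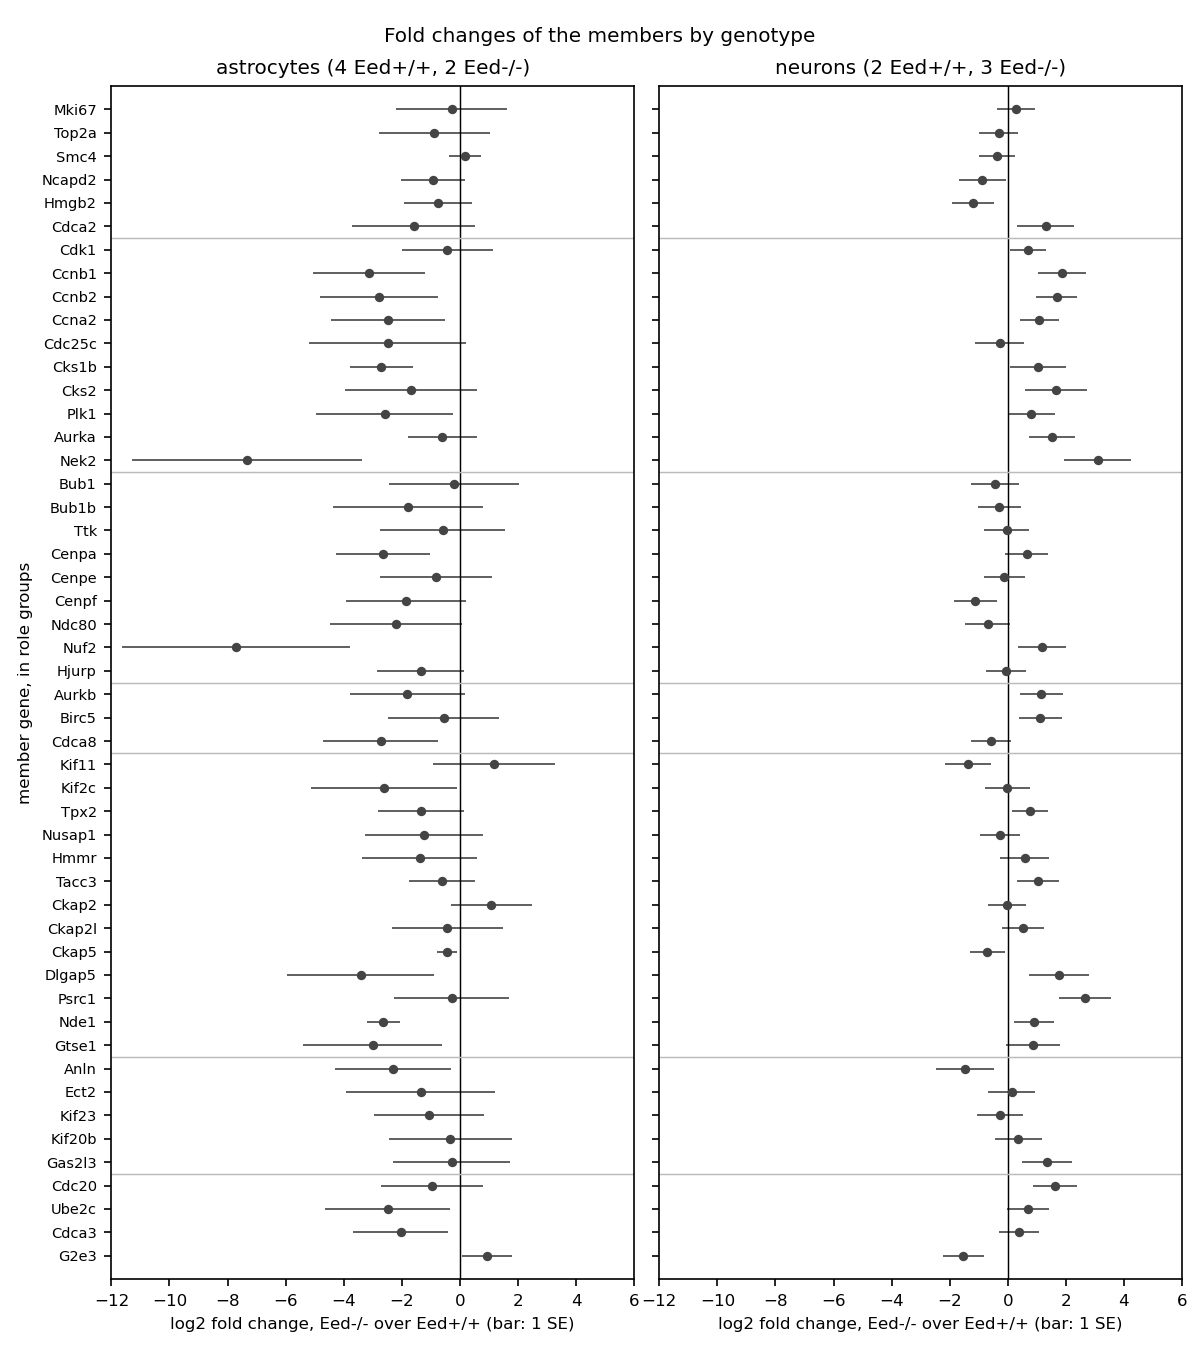
Log2 fold change of Eed-/- over Eed+/+ cells (x axis, points, with bars of 1 SE) for each member (y axis, in role groups) in astrocytes and in neurons. In astrocytes 46 points lie left of 0 with wide bars, Nde1 and Ckap5 having the shortest; Nuf2 and Nek2, at 0 reads in both Eed-/- libraries, have fitted values that depend on the prior count.

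The size of the median in astrocytes varied with single libraries, and it was positive within 1 run of libraries. The well aligned astrocyte libraries fall into 2 runs of consecutive library numbers, each with 2 Eed+/+ libraries and 1 Eed-/- library. In the first run (Eed+/+ replicates 1 and 2, Eed-/- replicate 2) the lone Eed-/- library had 34 members without a read, so most of the 33 members tested there entered only through the Eed+/+ libraries and could only be lower. The 6 members that edgeR called lower in that run (9.97% of all genes were called) are therefore given without a reading. Within the second run (Eed+/+ replicates 4 and 5, Eed-/- replicate 5) the median was 0.49, with 24 of 42 members positive. There Eed+/+ replicate 5, 1 of the 2 Eed+/+ libraries, had 34 members without a read, so this median is given without a reading as well. Without Eed+/+ replicate 1 the median was -0.22 (24 of 46 negative), and without Eed-/- replicate 2 it was -0.63. Nde1 was negative within both runs (-3.51 and -2.03). Over all 10 astrocyte libraries 25 members could be tested, with a median of -0.43 against -0.54 for all genes.

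**Figure D5:**
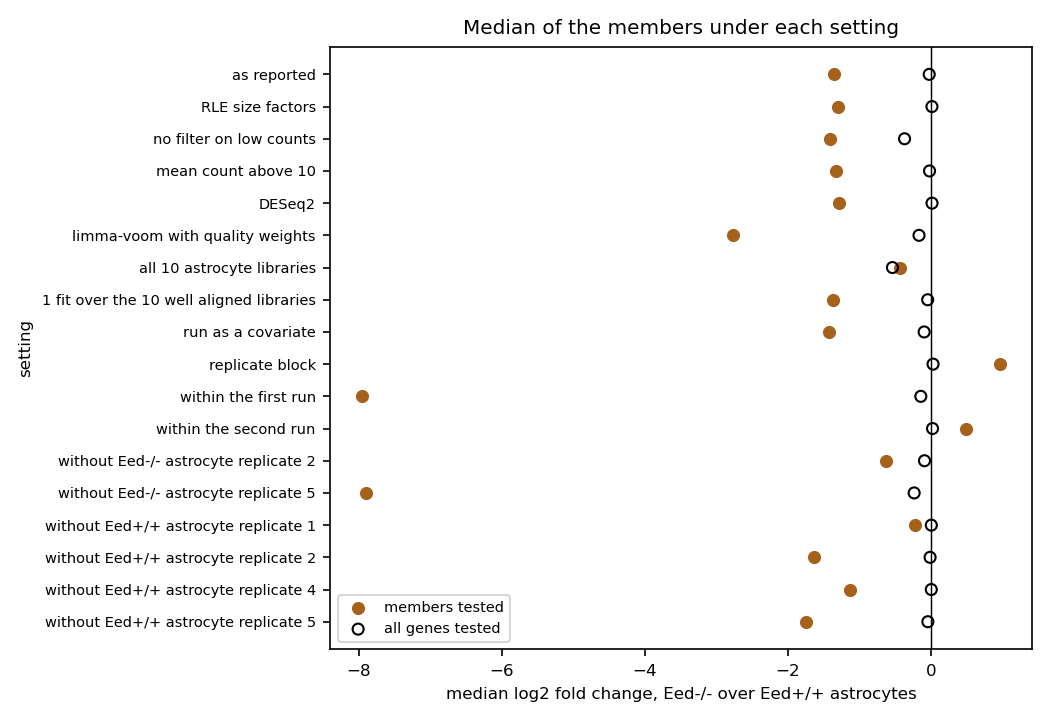
Median log2 fold change of Eed-/- over Eed+/+ astrocytes (x axis) for the members tested (filled) and for all genes tested (open) under each setting (y axis). With all 6 well aligned libraries the members lie at -1.35. The medians of -7.89 and -7.95 lack Eed-/- replicate 5 and depend on the prior count. The filled points right of 0 are the second run (0.49) and the fit with replicate numbers as a block.

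Detection varied among the poorly aligned astrocyte libraries as well. There were 27, 16 and 3 members with a read in Eed-/- replicates 1, 3 and 4 and 18 in Eed+/+ replicate 3. Eed-/- replicate 1 held the highest unscaled Mki67 value of all libraries, 457 CPM, and a summed 4715 CPM of members. In that library all 8 microglia markers were read, at a summed 13168 CPM, and 4 of 5 erythroid markers at 8829 CPM, whereas 2 of 8 oligodendrocyte lineage and 1 of 10 neuron markers had a read. Of 6 intermediate progenitor markers 1 had reads, at 1188 CPM, the highest sum of that list in any library. The part of these cells was not tested.

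No related gene passed the test in astrocytes. Over 64 genes of 5 lists, edgeR called 0 higher and 0 lower (1 lower at an unadjusted p of 0.05, cyclin F gene Ccnf), and DESeq2 and limma called 0 each (3 and 1 unadjusted). The median log2 fold change was -0.17 for 14 APC/C subunits, -0.25 for 15 other kinetochore and checkpoint genes, -0.37 for 11 other condensin and cohesin genes, -0.23 for 16 regulators and transcription factors of G2/M, and 0.01 for 8 D and E cyclins and partners.

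In neurons the comparison of Eed-/- (n = 3) with Eed+/+ cells (n = 2, of which replicate 2 was poorly aligned) showed no member past the threshold and no shared direction. Positive fold changes were found for 29 members and negative ones for 21, with a median of 0.46, against 0.15 for all 11862 genes tested. edgeR called 0 members and 0 genes (0%) at an adjusted p of 0.05. At an unadjusted p of 0.05 it called 4 members higher, Psrc1, Nek2, Ccnb2 and Ccnb1 (background 2.12%), and 1 lower, G2e3 (5.15%). DESeq2 called 0 members at 0.05 (6 unadjusted, background 9.46%) and 1, Psrc1, at 0.2 (background 1.32%), and limma called 0 (3 unadjusted, background 7.75%). Without the poorly aligned replicate 2, which leaves 1 Eed+/+ neuron library, 43 members were positive, with a median of 0.76. Without replicate 1 in its place, 8 members passed the threshold, 4 in each direction, against 24% of all genes (2718 called). That fit rests on the poorly aligned Eed+/+ library alone, which is assumed to vary like the Eed-/- ones.

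The members with the smallest p in neurons act in spindle assembly and entry. Psrc1, a spindle protein, stood at 8.39 and 2.91 CPM (unscaled) in Eed+/+ replicates 1 and 2, with 15 and 1 reads, and at 58.1, 34.5 and 35.8 CPM in Eed-/- replicates 1, 2 and 3 (log2 fold change 2.67, SE 0.89, edgeR adjusted p 0.646). Nek2 had 3 reads and 1 read in Eed+/+ and 26, 44 and 21 reads in Eed-/- neurons (3.09, SE 1.15, edgeR adjusted p 0.668). The B-type cyclin Ccnb2 was 44.2 and 34.9 CPM in Eed+/+ and 157, 179 and 69.2 CPM in Eed-/- neurons (1.68, SE 0.70, edgeR adjusted p 0.670). In each of these 3 genes the groups did not overlap. In all, 14 members had every Eed-/- value above every Eed+/+ value, against 13.6% of all genes, and 1, Ckap5, had every value below, against 8.95%.

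Abundant members of each role overlapped between the genotypes in neurons except Ckap5. Ckap5 was 172 and 236 CPM (unscaled) in Eed+/+ and 140, 123 and 151 CPM in Eed-/- neurons (-0.70, SE 0.60). Mki67 was 103.5 and 72.8 CPM against 78.8, 76.3 and 190 CPM (0.29, SE 0.66). Top2a was 187 and 399 CPM against 213, 199 and 384 CPM (-0.31, SE 0.67), so that the 2 Eed+/+ libraries lay on both sides of the Eed-/- ones. Cdk1 stood at 100 and 64.0 CPM against 171, 158 and 97.6 CPM (0.70, SE 0.63), Cenpa had a fold change of 0.66 (SE 0.75), Ube2c of 0.70 (SE 0.72), Kif23 of -0.25 (SE 0.79) and Cdca8 of -0.59 (SE 0.69). By role the medians were 1.31 for mitotic entry (9 of 10 positive), 1.13 for the passenger complex, 0.58 for spindle genes, 0.55 for ubiquitin and anaphase genes, 0.14 for cytokinesis, -0.12 for kinetochore genes (7 of 9 negative) and -0.34 for chromosome structure. Of 10 neuron markers 7 were positive (median 1.48), and of 5 intermediate progenitor markers tested 5 were (1.26), with none past the threshold in edgeR (4 and 1 at an unadjusted p of 0.05) or limma (2 and 0 unadjusted), while DESeq2 called 1 neuron marker, Neurod6, higher (5 and 2 unadjusted). Of 8 microglia markers 3 could be tested, all positive (median 2.16, 0 called and 0 unadjusted in edgeR, DESeq2 and limma), at a summed 26.9 and 0 CPM (unscaled) in Eed+/+ and 121, 59.3 and 12.4 CPM in Eed-/- neurons. Their part in the level of the members was not tested.

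Between cell types, astrocytes were set against neurons over the 10 well aligned libraries. Of the 50 members 47 had a negative fold change in astrocytes, with a median log2 fold change of -1.03, against -0.15 for all 12994 genes. No member passed the test in edgeR (0 members, 0 genes, 0%), with 2 members lower at an unadjusted p of 0.05, Nuf2 and Cks1b (background 4.12%), and 0 higher (4.06%). DESeq2 called 0 members at 0.05 (3 unadjusted, background 9.92%) and 1, Nuf2, at 0.2 (background 3.6%), and limma called 0 (2 unadjusted, background 9.53%). Nuf2 was 25.2 CPM (unscaled) in the Eed+/+ and 28.4 to 49.1 CPM in the Eed-/- neuron libraries, and was without a read in 4 of 6 astrocyte libraries (-4.92, SE 1.83, edgeR adjusted p 0.517). Cks1b had a fold change of -1.41 (SE 0.65, edgeR adjusted p 0.606) and Hmgb2 of -1.46 (SE 0.70, edgeR adjusted p 0.632). Markers of intermediate progenitors had negative fold changes in 5 of 5 tested cases (median -1.28, 2 at an unadjusted p of 0.05 and 0 adjusted in edgeR, with Neurog2 called lower by DESeq2), and microglia markers in 7 of 7 (median -2.25, 0 called by edgeR or DESeq2, 0 and 1 unadjusted). Neuron markers were negative in only 7 of 10 cases (median -0.59, from -1.22 to 3.29). Oligodendrocyte lineage markers were negative in 6 of 8 (median -0.47). In these 2 lists edgeR called 0, also unadjusted. All 10 astrocyte markers were positive (median 1.39, 0 called and 9 unadjusted in edgeR, 5 called by DESeq2). Their part in the level of the members was not tested. Within Eed+/+ cells alone the median was 0.18, with 32 members positive, and within Eed-/- cells -2.02, with 48 negative.

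The test of whether the genotype difference itself differed between astrocytes and neurons gave a median of -2.25 over the members, with 46 negative, against -0.19 for all genes. The median was -1.26 without Eed+/+ astrocyte replicate 1, -1.30 without Eed-/- astrocyte replicate 2 and -8.44, which depends on the prior count, without Eed-/- astrocyte replicate 5. edgeR called 0 members and 0 genes (0%), with 2 members lower at an unadjusted p of 0.05 (Nde1 and Nek2, background 1.82%) and 0 higher (0.469%). For Nde1 the difference was -3.81 (SE 0.92, edgeR adjusted p 0.99997), and DESeq2 called it (-3.79, adjusted p 0.0340, background 0.0462%), while limma called 0 members. At an unadjusted p of 0.05 DESeq2 called 5 members (background 3.8%) and limma 1 (3.38%). In neurons Nde1 stood at 38.1 and 43.7 CPM (unscaled) in Eed+/+ and at 79.6, 102 and 60.5 CPM in Eed-/- cells, the reverse order of astrocytes. Nek2, at 0 in the Eed-/- astrocyte libraries, had a fitted value that depends on the prior count, and Cks1b a difference of -2.93 (SE 1.45, edgeR adjusted p 0.99997). The single well aligned Eed+/+ neuron library carries the Eed+/+ side of this test in neurons.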

How the data were processed

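Smart-Seq v2 libraries of sorted cells were sequenced, and the authors aligned reads with STAR and counted them per gene. The deposited values are raw counts of uniquely aligned reads, and the unstranded column was used. Which annotation they counted against was not found in the paper or labels. The 4 lines of totals, which name no gene, stayed out of library sizes and tests. Of 16 libraries, 1 with labels for both cell types entered no comparison. Symbols came from GENCODE mouse release M21 (GRCm38), with 53274 identifiers matched and 105 not. Promoters came from RefSeq (GRCm38.p6), and for 40 of 43 members the end of the promoter lay in their own transcripts.

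Levels are CPM, scaled by TMM over the 10 well aligned libraries unless called unscaled. Tests used edgeR 4.0.16 (quasi-likelihood, TMM, filterByExpr, robust, two-sided, R 4.3.3) with Benjamini-Hochberg adjustment over all genes tested, at 0.05. Astrocytes, cell types and the interaction were fitted on well aligned libraries (at least 60% and 1000000 uniquely aligned reads, limits the study states for its embryonic libraries; of the present libraries it left some out by principal components or correlation without naming them, so the set used here may differ) and neurons on all 5. For the last pair of contrasts the low-count filter asked for 2 libraries, since 1 group had 1 library. Steps were run on simulated data, and the check on them covered the direction of fold changes at a spread below the fitted one. The biological coefficient of variation fitted by edgeR was 0.84 in astrocytes, 0.58 in neurons and 0.74 for cell types and the interaction. The power of the tests at this spread is not given. DESeq2 1.42.0, limma 3.58.1 (voom with quality weights), other filters, other scaling, runs, a replicate block and left-out libraries were alternatives. Floors (3 reads) cover counting error only, since reads without molecular identifiers are not independent molecules. Fold changes were named for the 3 members of smallest p in a comparison and, by genotype, for Mki67 and the most abundant member of each role; other members named without an error were chosen after their values were seen. Members and lists were chosen with earlier results of these data known. Individual animals were the replicates of the astrocyte sort, and cell numbers per library were not found in the labels. Depth per library ran from 211736 to 3178529 gene reads, or a floor of 14.2 to 0.944 CPM. Overlapping genes lose reads set aside as ambiguous, and 14 members share exon bases with another gene.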

Additional observations from a re-analysis of the deposited data

Results flagged for a closer look

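Over 18 groups of values examined (summed levels and named members), 2 held a sample far from the others, and chance alone gives about 1 in 20. Ckap5 in Eed+/+ astrocyte replicate 2, at 147 CPM, lay apart from the other 3 well aligned Eed+/+ libraries at 184 to 190 CPM. Nek2 in Eed+/+ astrocyte replicate 1, at 35.7 CPM, lay apart from 0, 6.07 and 0 CPM in replicates 2, 4 and 5. Among well aligned libraries Nde1 was lower in both Eed-/- astrocyte libraries than in the 4 Eed+/+ ones and higher in all 3 Eed-/- neuron libraries than in the Eed+/+ one, though the poorly aligned Eed-/- astrocyte replicate 1 held 159 CPM (unscaled), and the difference between these genotype differences was -3.81 on the log2 scale (edgeR adjusted p 0.99997, DESeq2 adjusted p 0.0340). The library with labels for both cell types had 3 reads of members, which is the floor, and 221456 gene reads.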

How the results depend on the processing

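The size of the median in astrocytes varied with single libraries, and its sign turned within the second run and with a replicate block. The median of the members, -1.35, was 0.97 with a replicate block. It was -7.95 within the first run and 0.49 within the second run (runs were chosen after seeing the data). With 1 library left out it lay between -7.89 and -0.22. Only replicates 2 and 5 occur in both genotypes, so the block leaves Eed+/+ replicates 1 and 4 out of its fold changes. Their summed levels were 4742 and 2488 CPM. Both the block and the second run hold Eed+/+ replicate 5, with 34 members at 0. By limma the medians were -2.77 in astrocytes, -2.15 between cell types (-1.03 by edgeR) and -3.64 for the interaction (-2.25 by edgeR). DESeq2 called 1 member and the first run 6, where the lone Eed-/- library is assumed to vary like the others and most members tested could only be lower, having no read in it. Genes called numbered 14 without a filter, 14 by DESeq2, 1 in a fit over 10 libraries, 15 with the replicate block and 1049 in the first run. Over all 10 astrocyte libraries Mki67 was at 1.32 and Cdca8 at 0.39. With the replicate block Mki67 was at 1.46, Top2a 1.19, Cdk1 2.04, Cenpa 1.19, Cdca8 0.19, Kif23 1.49 and Ube2c 1.37. Within the second run Mki67 was at 1.48, Top2a 0.93, Cdk1 1.62 and Kif23 0.96. With 1 library left out Mki67 ran from -9.07 to 0.81, Top2a from -11.17 to 0.26, Cdk1 from -3.63 to 0.75 and Kif23 from -5.42 to 0.25, turning positive without Eed+/+ replicate 1 and, but for Kif23, also without Eed-/- replicate 2 (0.72, 0.11 and 0.49). In neurons the median was 0.76 on well aligned libraries and 0.27 to 0.77 with 1 library left out. Left-out libraries gave 0 to 8 members and 0 to 2718 genes called, the highest without Eed+/+ replicate 1, and 15 genes without Eed-/- replicate 1. Genes called numbered 127 without a filter, 26 by DESeq2 and 3 in 1 fit over 15 libraries. Mki67 was at -0.21 with limma, -0.27 with the replicate block and -0.24 to 0.52 with 1 library left out. On well aligned libraries Top2a was at 0.56, Cdca8 0.57 and Kif23 1.18 (left-out ranges -0.78 to 0.56, -1.12 to 0.57 and -0.94 to 1.18), and Kif23 was at 0.75 with limma and 0.22 with the replicate block. Between cell types, no filter called 1 member (Nuf2) and 106 genes, DESeq2 155 genes and all 15 libraries 2 genes. In Eed+/+ cells alone the median was 0.18 and Cks1b 0.059. With 1 library left out 0 to 1 members and 0 to 269 genes were called, with medians of -4.37 to -0.72, the extremes without Eed-/- astrocyte replicates 5 and 2. The replicate block gave -1.73, and over 15 libraries -3.10 (all genes -1.10) with 50 of 50 negative. For the interaction DESeq2 called 1 member and 6 genes, no filter 1 gene, all 15 libraries 7 and those with the replicate block 2. Left-out libraries gave 0 to 1 genes and medians of -8.44 to -1.26. The summed level in Eed+/+ neurons was 3047 CPM over 15 libraries, 2148 with RLE and 2433 unscaled. Fold changes of named members kept direction and side of the threshold in 157 of 180, 131 of 143, 55 of 57 and 47 of 48 alternatives (astrocytes, neurons, cell types, interaction). Same-numbered libraries did not deviate together in every pair (correlations of 0.15 and -0.06 in well aligned astrocytes, 0.12 and -0.28 in neurons, and -0.03 to 0.13 over 5 pairs of astrocytes and neurons of 1 genotype), and the labels do not tie numbers to animals, so the numbers were not taken to be paired. Beyond the left-out libraries and runs the causes were not tested. Depth limited members at 0, which can hold up to 0.944 to 3.02 CPM at 3 reads in well aligned libraries.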
